A study of Mus musculus with 32 samples.

Results

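The genes described here are 10 transcripts of macrophages and of complement C1q, namely *Csf1r*, *Adgre1*, *Cd68*, *Lyz2*, *Ctss*, *C1qa*, *C1qb*, *Trem2*, *Mrc1* and *Cd163*. They were taken as a list of symbols, matched by Ensembl ID, from the 54838 genes of the expected count table, and all 10 passed the filter on low counts in every comparison. The RNA came from tibialis anterior (TA) muscle of WT and *Mtm1* KO C57BL6/J mice at P1, P14, P21 or P35 (postnatal days 1, 14, 21 and 35). Each genotype had 4 libraries at each age, which gave 32 libraries in 8 groups. The KO mice carry a germline deletion within *Mtm1* that shifts its reading frame, so every cell type of the muscle, macrophages included, bears the allele. *Mtm1* encodes the phosphoinositide phosphatase myotubularin, and its loss is the mouse model of X-linked myotubular myopathy. The WT mice differ from the KO mice by this allele alone in the labels, and no group received a treatment.

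Macrophages of skeletal muscle live between the fibres, clear debris and dying fibres, and increase when fibres are damaged. They depend on the receptor CSF1R, which binds the growth factors CSF1 and IL34, and they digest what they engulf in lysosomes that are rich in CD68, lysozyme and cathepsin S. They are also the main source in most tissues of C1q, the recognition molecule of the classical complement pathway, which is built from the products of *C1qa*, *C1qb* and *C1qc*. CD163 and the mannose receptor MRC1 are scavenger receptors typical of macrophages that settle in healthy connective tissue, whereas TREM2 is a lipid-sensing receptor typical of macrophages that take up lipid and debris.

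The stretches just upstream of the transcription start are shown for 4 of the genes, as *C1qb* and *Cd68* were higher in KO muscle at P35 and *Mrc1* and *Cd163* were not. Each is the 250 bases before the RefSeq start (GRCm38), read 5′ to 3′ on the strand of the gene. Capitals mark GAGGAA, or TTCCTC where it lies on the other strand, which is the purine-rich core that the macrophage transcription factor PU.1 recognizes.
C1qb, chr4:136886201-136886450, minus strand: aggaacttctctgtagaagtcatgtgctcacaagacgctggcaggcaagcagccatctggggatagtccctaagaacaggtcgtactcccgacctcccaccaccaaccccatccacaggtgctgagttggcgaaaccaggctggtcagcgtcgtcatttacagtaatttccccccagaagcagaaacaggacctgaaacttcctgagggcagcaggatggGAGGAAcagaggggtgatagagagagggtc
Cd68, chr11:69666171-69666420, minus strand: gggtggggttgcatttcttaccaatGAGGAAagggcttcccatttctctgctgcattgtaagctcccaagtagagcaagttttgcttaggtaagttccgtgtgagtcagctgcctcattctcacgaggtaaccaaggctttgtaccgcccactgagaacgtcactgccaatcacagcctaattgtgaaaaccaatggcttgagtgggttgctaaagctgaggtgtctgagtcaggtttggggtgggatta
Mrc1, chr2:14229164-14229413, plus strand: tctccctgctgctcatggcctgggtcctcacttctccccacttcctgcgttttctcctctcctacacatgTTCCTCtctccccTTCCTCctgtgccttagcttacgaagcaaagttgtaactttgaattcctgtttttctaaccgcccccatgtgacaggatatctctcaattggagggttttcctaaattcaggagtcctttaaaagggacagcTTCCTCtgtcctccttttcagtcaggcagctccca
Cd163, chr6:124304401-124304650, plus strand: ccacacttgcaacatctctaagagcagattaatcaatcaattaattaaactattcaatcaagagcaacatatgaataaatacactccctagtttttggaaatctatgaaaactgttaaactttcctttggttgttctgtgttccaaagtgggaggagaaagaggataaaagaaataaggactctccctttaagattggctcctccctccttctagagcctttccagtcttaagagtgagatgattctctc
The RefSeq promoter table held 7 of the 10 genes, and *C1qa*, *Adgre1* and *Csf1r* are named only. Both strands were searched, and no 2 matches overlapped. GAGGAA occurred once before *C1qb* (first base at -30 from the start), once before *Cd68* (-225), once before *Ctss* (-164), once before *Trem2* (-40) and 3 times before *Mrc1* (-180, -167 and -35). It was not found before *Lyz2* or *Cd163*. The same letters occurred in 23.3% of the 32851 windows of this length in the table. TATAAA, searched in the same way, was found before *Ctss* alone of the 7, and in 12.4% of all windows. The match was thus present in windows of genes that rose and in that of *Mrc1*, and absent from a window of each kind.

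The libraries held 49321035 to 85631408 counts each, and levels are given as CPM, counts relative to the library total, scaled by TMM over all 32 libraries. *Mtm1* itself, measured over the whole gene, fell in KO muscle at P14, P21 and P35, for example from 22.1 ± 1.90 CPM (SD, n=4) to 3.69 ± 0.266 CPM at P35. At P1 it was 5.51 ± 0.344 CPM in WT muscle and 2.77 ± 0.764 CPM in KO muscle, a difference that did not pass the test (adjusted *P*=0.0668, edgeR). *Acta1*, the actin of muscle fibres, was at 9543 CPM or more in each library. Markers of other tissues set the P1 libraries apart. The share of mitochondrial counts ran from 2.99% to 17.9% and did not overlap between genotypes at P21, with 9.75% to 11.99% in WT and 8.21% to 8.78% in KO libraries, or at P35, with 12.4% to 17.9% in WT and 10.3% to 10.5% in KO libraries. The summed level of 6 keratinocyte genes, which skin expresses, was 1757 to 6522 CPM at P1 and 3.74 to 21.5 CPM at the later ages, and that of 12 neutrophil genes was 77.6 to 457 CPM at P1 and 0.668 to 24.7 CPM later.

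**Figure D1:**
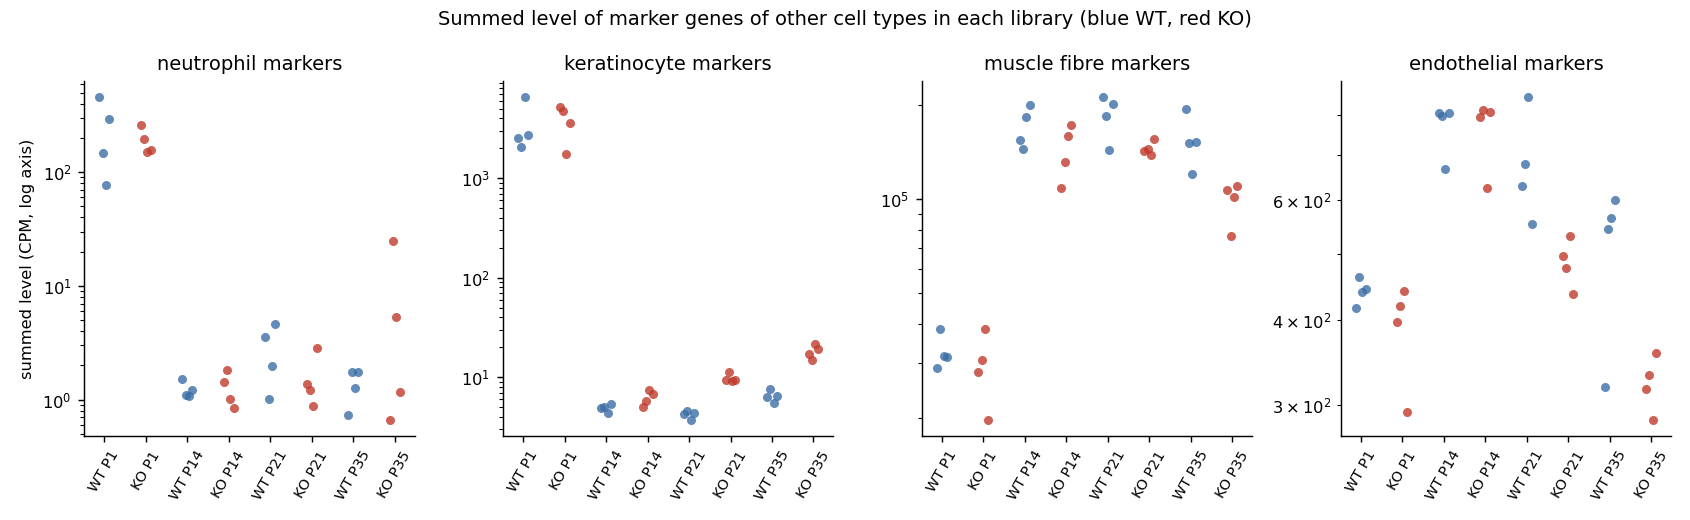
Summed level (CPM, log axis) of marker genes of neutrophils, keratinocytes, muscle fibres and endothelium in each library, by genotype and age (1 point a library, blue WT, red KO). The 8 P1 libraries stand above all later libraries for neutrophil and keratinocyte genes and below them for muscle fibre genes.

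The question at each age was whether these transcripts differ between KO and WT muscle. In bulk RNA a level is a share of the library. More macrophages, more RNA of a gene per macrophage and less RNA of muscle fibres therefore cannot be told apart. At P1, 0 of the 10 genes passed the threshold (edgeR adjusted *P* under 0.01 and a fold change over 1.5), where 0.0442% of the 18100 genes tested were called higher. Of the 10, 2 had an unadjusted *P* under 0.05 at this age, as did 10.9% of all genes tested. They were *Mrc1* (log2 fold change -0.32 ± 0.09 SE) and *Adgre1* (-0.29 ± 0.10). In both every KO library lay below every WT library, as was so for 4.78% of all genes tested. At P14, 0 of 10 passed, where 0.0254% of 15728 genes were called higher, and 0 had an unadjusted *P* under 0.05, against 6.82% of all genes tested. DESeq2 also called 0 of 10 at both ages. At P14 same-numbered WT and KO libraries deviated together, and a paired edgeR fit, blocked on that number, again gave 0 of 10, where 67 genes of all tested were called higher and 31 lower instead of 4 and 1. In that paired fit 3 of the 10 had an unadjusted *P* under 0.05, *Cd163* (-0.22 ± 0.06, adjusted *P*=0.0821, edgeR), *Adgre1* (-0.34 ± 0.13, adjusted *P*=0.153) and *Trem2* (0.49 ± 0.21, adjusted *P*=0.221). *Adgre1*, *Ctss* and *Cd163* were lower in the KO library of 4 of 4 pairs, and *Trem2* was higher in 4 of 4. The shares of all genes with such a *P* or such a pattern are not given here, so neither is read as particular to these genes. Without the block, the 95% confidence intervals at P14 ran from -0.86 to 0.41 for 9 of the genes, and that of *Trem2* from -0.25 to 1.22.

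At P21, 4 of the 10 genes rose in KO muscle, namely *Cd68*, *Ctss*, *Lyz2* and *C1qa*, where 3.18% of the 15179 genes tested were called higher. The median log2 fold change of the 10 genes was 0.54, and that of all genes tested 0.01. In 7 of the 10 every KO library lay above every WT library, as was so for 13.7% of all genes. At P35, 6 of the 10 rose, *Trem2* and *C1qb* in addition, where 8.49% of 15595 genes were called higher, and the median log2 fold change was 0.91 against 0.04 for all genes. No KO library overlapped the WT range in these 6 genes, as was so for 19.2% of all genes in the upward direction.

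**Figure D2:**
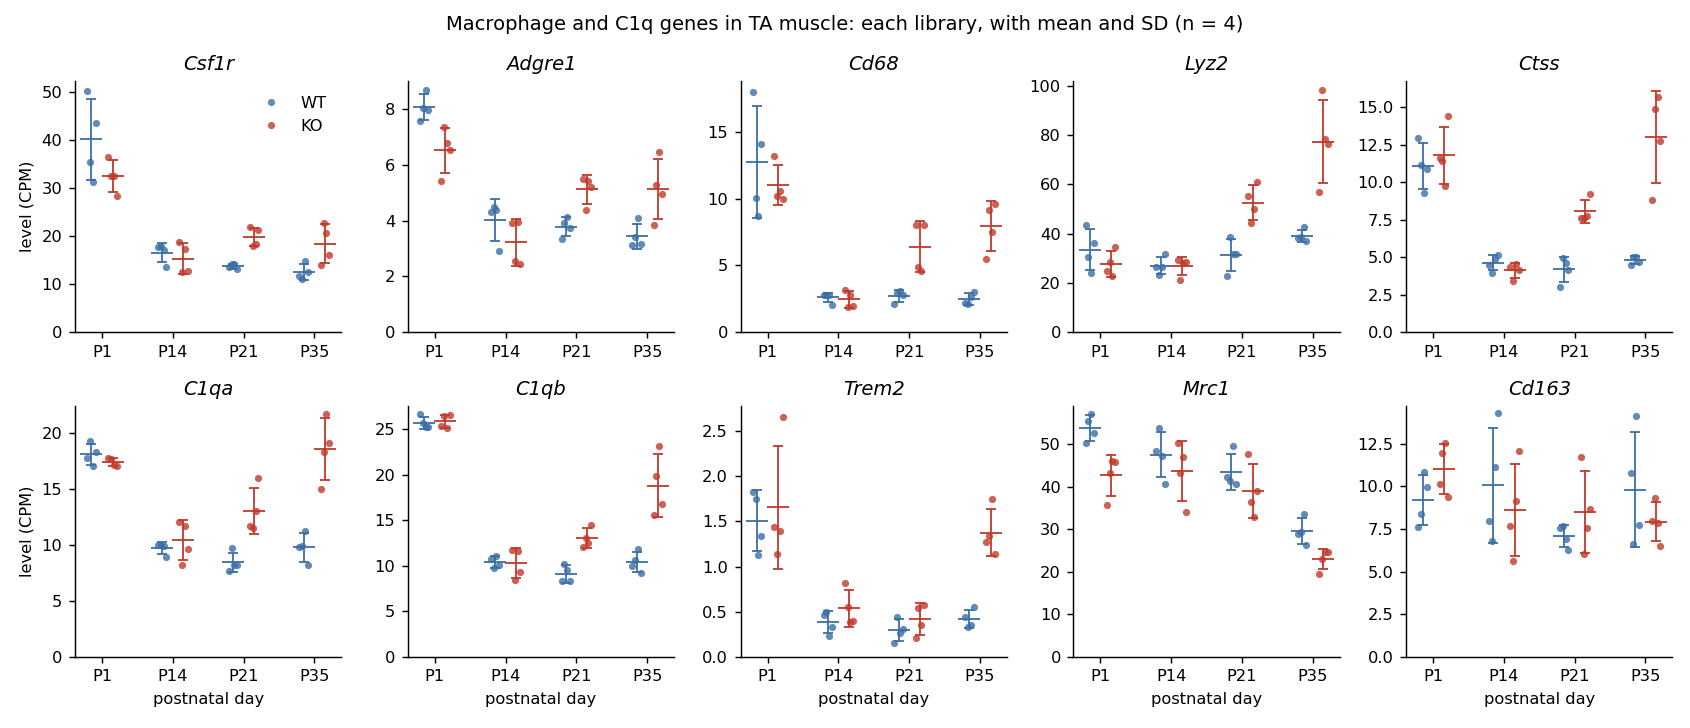
Level (CPM, linear axes from 0) of the 10 genes by age and genotype, with 1 point a library and the mean and SD of 4 libraries. *Cd68* in KO muscle sits between 4.60 and 9.64 CPM at P21 and P35, above each WT library of those ages, whereas *Cd163* overlaps at each age.

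*Csf1r*, the receptor on which macrophages depend, was at 13.5, 14.1, 14.2 and 13.1 CPM in WT muscle of P21, against 21.8, 18.0, 18.4 and 21.2 CPM in KO muscle. The ranges did not overlap, and the log2 fold change of 0.54 ± 0.08 had an adjusted *P* of 0.00257 but stayed under the fold threshold. At P35 WT muscle held 11.6, 11.02, 14.7 and 12.6 CPM, against 13.9, 22.7, 20.7 and 16.1 CPM in KO muscle. Here KO replicate 1 fell within the WT range, and the difference did not pass (0.58 ± 0.16, adjusted *P*=0.0179, edgeR). *Csf1r* overlaps *Hmgxb3* on the opposite strand. The library kit marks the strand, but whether the counting used it is not given in the sources used here.

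*Adgre1*, which encodes the pan-macrophage surface protein F4/80, did not pass at either age in edgeR. At P21 it was at 3.34 to 4.13 CPM in WT muscle and 4.37 to 5.48 CPM in KO muscle, and at P35 at 3.11 to 4.08 CPM and 3.84 to 6.48 CPM. Its log2 fold changes of 0.45 ± 0.12 at P21 and 0.60 ± 0.17 at P35 had adjusted *P*-values of 0.0269 and 0.0201 (edgeR), whereas DESeq2 called it at P35 (0.59, adjusted *P*=0.0075), which gave 7 of 10 there. Without KO replicate 1 at P35, both *Adgre1* (0.72) and *Csf1r* (0.69) passed (adjusted *P*=0.00805 and 0.0063, edgeR), and the count at P35 became 8 of 10. This was 1 of the 8 fits that left out 1 library, and neither gene passed in the others. Without KO replicate 3 they were at 0.46 and 0.51 (adjusted *P*=0.0671 and 0.0556, edgeR). KO replicate 1 was the lowest of the 4 KO libraries of P35 in 8 of the 10 genes, and its neutrophil sum of 0.668 CPM was also the lowest of its group.

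*Cd68*, a glycoprotein of the lysosomal membrane, was at 2.09, 2.95, 3.12 and 2.77 CPM in WT muscle and at 8.06, 4.89, 4.60 and 8.05 CPM in KO muscle at P21. The KO libraries formed a higher and a lower pair, both above the WT range. The log2 fold change was 1.23 ± 0.22 (adjusted *P*=0.00522, edgeR). At P35 the WT libraries were at 2.19, 2.08, 2.66 and 2.998 CPM, against 5.48, 9.13, 7.53 and 9.64 CPM in the KO libraries. This was a log2 fold change of 1.70 ± 0.20 (adjusted *P*=0.000286), or 3.25-fold with a 95% interval from 2.38 to 4.44.

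*Ctss*, which encodes the lysosomal protease cathepsin S that trims the invariant chain of MHC class II, gave 2.997, 4.97, 4.59 and 4.15 CPM in WT muscle and 7.59, 7.60, 7.76 and 9.23 CPM in KO muscle at P21. All KO libraries lay above the WT libraries, and the log2 fold change was 0.95 ± 0.16 (adjusted *P*=0.0037, edgeR). At P35 WT muscle held 4.50, 5.01, 5.01 and 4.68 CPM, a narrow range, and KO muscle 8.78, 14.9, 15.7 and 12.7 CPM. The log2 fold change there was 1.46 ± 0.17 (adjusted *P*=0.00027, edgeR).

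*Lyz2*, the lysozyme of macrophages and neutrophils, was at 22.9, 38.7, 31.7 and 31.9 CPM in WT muscle and 55.2, 44.4, 50.03 and 60.8 CPM in KO muscle at P21 (0.76 ± 0.15, adjusted *P*=0.00883, edgeR). At P35 it was at 38.3, 38.6, 42.6 and 36.8 CPM and at 56.8, 98.1, 78.4 and 76.3 CPM (1.01 ± 0.15, adjusted *P*=0.000705, edgeR). The highest KO library, replicate 2, also had the highest neutrophil sum of its age at 24.7 CPM, against 0.668 to 5.30 CPM in the other KO and 0.730 to 1.76 CPM in the WT libraries. Without it the log2 fold change was 0.87 ± 0.12 (adjusted *P*=0.00103, edgeR). *Lyz2* has a close paralogue, *Lyz1*, and all its counts were whole numbers.

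*C1qa*, which encodes the A chain of C1q, was at 7.66, 9.71, 8.16 and 8.20 CPM in WT muscle and 11.7, 11.5, 13.03 and 15.99 CPM in KO muscle at P21 (0.64 ± 0.12, adjusted *P*=0.00737, edgeR). At P35 it was at 9.78, 9.88, 11.3 and 8.16 CPM and at 15.03, 18.3, 21.7 and 19.1 CPM (0.95 ± 0.13, adjusted *P*=0.000621, edgeR). No library overlapped at either age. *C1qb* was at 8.30, 10.2, 9.52 and 8.28 CPM in WT muscle and 12.1, 13.03, 12.5 and 14.5 CPM in KO muscle at P21, which did not overlap but stayed under the fold threshold (0.53 ± 0.10, adjusted *P*=0.00698, edgeR). At P35 *C1qb* rose, from 9.95, 10.6, 11.8 and 9.18 CPM to 15.5, 19.8, 23.1 and 16.7 CPM (0.88 ± 0.14, adjusted *P*=0.00107, edgeR).

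*Trem2* was the scarcest of the 10. At P21 it gave 0.147, 0.443, 0.266 and 0.310 CPM in WT muscle and 0.204, 0.541, 0.349 and 0.578 CPM in KO muscle, from 6 to 26 counts a library, and the groups overlapped. The 95% interval of its log2 fold change of 0.53 ran from -0.38 to 1.44, so a change of the size seen for *Cd68* was not excluded. At P35 it gave 0.438, 0.328, 0.356 and 0.553 CPM in WT muscle and 1.27, 1.34, 1.75 and 1.14 CPM in KO muscle, with no overlap. The log2 fold change was 1.73 ± 0.24 (adjusted *P*=0.000578, edgeR), or 3.33-fold with an interval from 2.29 to 4.82.

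*Mrc1*, the mannose receptor, had fitted changes below 0 at both ages, which turned above 0 when libraries were scaled by their totals. At P21 it was at 42.3, 41.4, 49.7 and 40.7 CPM in WT muscle and 47.6, 36.4, 32.8 and 39.1 CPM in KO muscle, which overlapped (-0.15 ± 0.11, adjusted *P*=0.382, edgeR). At P35 it was at 29.0, 29.4, 33.5 and 26.4 CPM and at 19.6, 23.0, 24.6 and 24.6 CPM, every KO library below every WT library, as was so for 20.4% of all genes. The log2 fold change of -0.34 ± 0.10 did not pass (adjusted *P*=0.0217, edgeR), and scaling by library totals, which moved the median of all genes to 0.44, gave 0.06. *Cd163*, the receptor for haemoglobin bound to haptoglobin, overlapped at each age. It was at 6.25 to 7.65 CPM in WT muscle and 6.03 to 11.7 CPM in KO muscle at P21, and at 6.62 to 14.1 CPM and 6.52 to 9.32 CPM at P35. Its log2 fold changes were 0.27 ± 0.18 and -0.28 ± 0.23 (adjusted *P*=0.304 and 0.343, edgeR), the latter 0.12 when scaled by library totals.

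**Figure D3:**
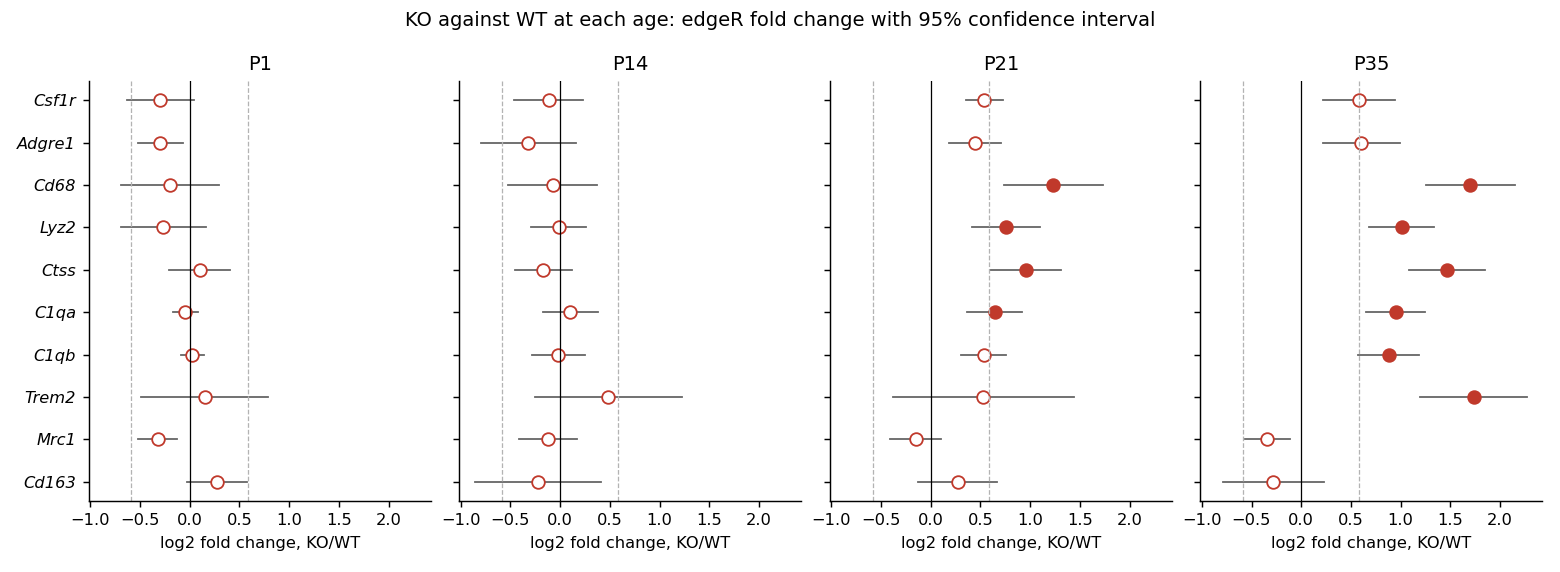
Log2 fold change of KO against WT for each gene at P1, P14, P21 and P35, with the 95% confidence interval of the edgeR fit. Filled points passed the threshold, and dashed lines mark a fold change of 1.5. 0 points are filled at P1 and P14, 4 at P21 and 6 at P35.

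The count at P21 was less stable than that at P35. Leaving out 1 of the 8 libraries gave 0 genes without WT replicate 4 or KO replicate 4, 1 without WT replicate 1 or 3 or KO replicate 1 or 2, 2 without KO replicate 3 and 3 without WT replicate 2, whereas at P35 it gave 6 to 8. *Ctss* kept its call in 5 of these 8 fits at P21, *Cd68* in 2, *Lyz2* in 1 and *C1qa* in 0. With all libraries of P21, DESeq2 also called *Cd68*, *Ctss*, *Lyz2* and *C1qa*, whereas edgeR with the replicate block called *Ctss* alone. Scaling by library totals gave 7 genes at P21 and 8 at P35, with the median of all genes moved to 0.20 and 0.44. Relative to these medians the log2 fold changes of the 10 genes were -0.16 to 1.22 at P21 and -0.38 to 1.70 at P35.

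Whether the genes moved unequally was asked from ratios of counts within a library, which do not depend on scaling. The log2 ratio of *Mrc1* to *Csf1r* at P21 was 1.65, 1.55, 1.81 and 1.63 in WT and 1.13, 1.01, 0.84 and 0.88 in KO libraries. At P35 it was 1.32, 1.42, 1.19 and 1.07 in WT and 0.50, 0.02, 0.25 and 0.61 in KO libraries. The groups did not overlap at either age, and KO minus WT was -0.69 at P21 and -0.90 at P35 (two-sided exact permutation *P*=0.0286 for each, adjusted 0.0571 over 8 ratio tests, n=4 per group). This is the smallest *P* that 70 assignments allow, and no ratio passed 0.05 after adjustment.

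The ratio of *Cd163* to *Csf1r* at P35 was -0.11, -0.73, -0.06 and -0.71 in WT and -0.80, -1.28, -1.40 and -1.30 in KO libraries, a difference of -0.79 without overlap (exact permutation *P*=0.0286, adjusted 0.0571). With *Adgre1* in place of *Csf1r* the difference was -0.82 (exact permutation *P*=0.0571). At P21 the difference was -0.30 with overlap (exact permutation *P*=0.0857, adjusted 0.114). The ratio of *Trem2* to *Csf1r* at P35 was -4.69, -5.02, -5.32 and -4.48 in WT and -3.44, -4.07, -3.56 and -3.81 in KO libraries, so that *Trem2* gained 2.23-fold on *Csf1r* (difference 1.16, exact permutation *P*=0.0286, adjusted 0.0571). At P21 it differed by -0.04 (exact permutation *P*=0.943). For *C1qa* the differences were 0.10 at P21 (exact permutation *P*=0.457) and 0.38 at P35 (exact permutation *P*=0.0857, adjusted 0.114).

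**Figure D4:**
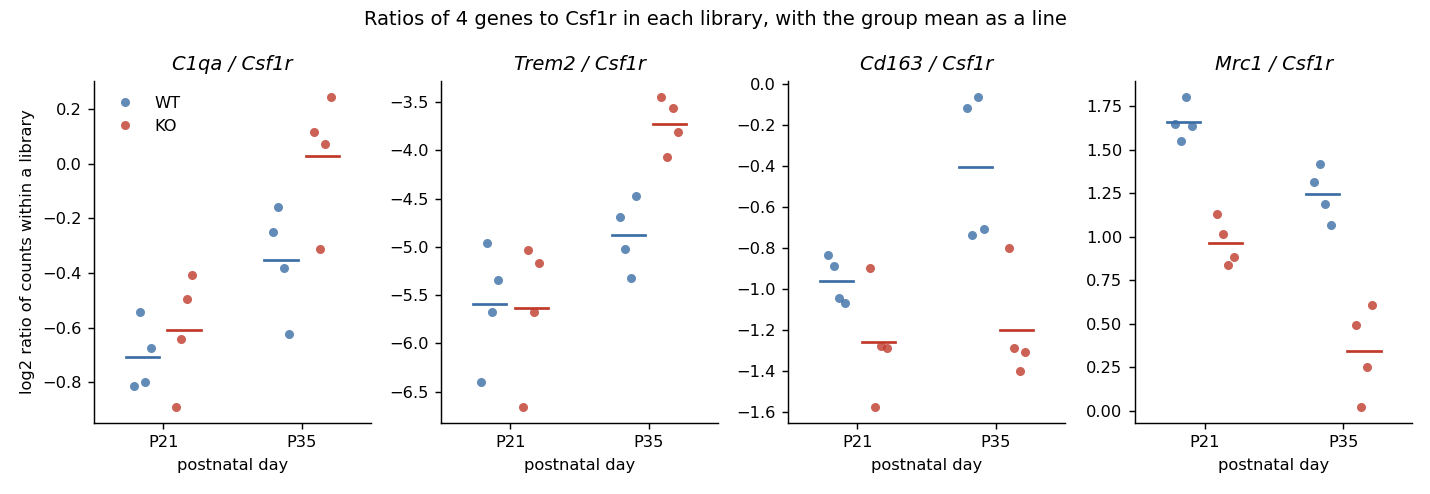
Log2 ratio of counts to *Csf1r* within each library at P21 and P35, for *C1qa*, *Trem2*, *Cd163* and *Mrc1* (1 point a library, blue WT, red KO, line: group mean). The WT and KO libraries separate for *Mrc1* at both ages and for *Trem2* and *Cd163* at P35.

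The course with age was compared next, within each genotype. From P1 to P14, 7 of the 10 genes fell in WT muscle, where 30.4% of the 17435 genes tested were called lower, and 7 of 10 in KO muscle, where 29.1% of 17719 were. They were *Cd68*, *Trem2*, *C1qb*, *Csf1r*, *Ctss*, *Adgre1* and *C1qa* in both. In WT muscle *Cd68* went from 18.0, 10.1, 8.71 and 14.1 CPM to 2.76, 2.77, 2.81 and 2.07 CPM (-2.30 ± 0.23, adjusted *P*=1.15e-05, edgeR). *C1qb* went from 26.6, 25.6, 25.2 and 25.2 CPM to 10.8, 9.70, 11.04 and 10.03 CPM (-1.32 ± 0.06, adjusted *P*=1.21e-07, edgeR). *Lyz2*, *Mrc1* and *Cd163* did not pass in either genotype, with log2 fold changes of -0.38 to 0.12.

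Keratinocyte and neutrophil genes moved with this step, as 6 of 6 and 11 of 11 tested of these lists fell from P1 to P14 in each genotype. So did mast cell genes, 7 of 7 in each genotype, whose sum was 409 to 503 CPM at P1 and 21.1 to 34.3 CPM at P14, and adipocyte genes, 4 of 5 in each, with 51.5 to 177 CPM and 1.35 to 15.6 CPM. Of fibroblast genes 5 of 7 fell in WT and 4 of 7 in KO muscle, and of erythroid genes 4 of 6 and 5 of 6. Of B cell genes 4 of 6 fell in WT and 2 of 6 in KO muscle, the latter near the share of all genes. That share was 30.4% called lower in WT and 29.1% in KO muscle. Endothelial genes rose, 4 of 6 in each genotype, and muscle fibre genes rose, 7 of 7 in each. Of all genes tested, 4304 of 17435 in WT and 4168 of 17719 in KO muscle were called higher. The part of these cell types in the fall of the macrophage genes was not tested. Scaling by library totals moved the median of all genes from -0.08 to -0.85 in WT muscle, and all 10 genes were then called lower.

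After P14 no step of the WT course passed. From P21 to P35, 0 of 10 genes passed in WT muscle, where 1.40% of 15039 genes were called higher and 1.05% lower, and from P14 to P21 again 0 of 10, where 2.93% of 15337 were called higher and 2.60% lower. *Mrc1* came nearest, with -0.57 ± 0.10 from P21 to P35 (adjusted *P*=0.00755, edgeR), just under the fold threshold, and it passed without WT P35 replicate 3. The unadjusted *P* was under 0.05 for 3 of the 10 from P14 to P21, as for 39.6% of all genes tested, and for 1 from P21 to P35, as for 34.4%, and DESeq2 called 0 in both. Erythroid genes rose from P14 to P21 and fell from P21 to P35, 6 of 6 in both genotypes, and their part in the course of the macrophage genes was not tested.

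In KO muscle 3 of 10 genes rose from P14 to P21, where 3.30% of 15585 genes were called higher. They were *Cd68* (1.35 ± 0.25, adjusted *P*=0.0054), *Lyz2* (0.96 ± 0.12, adjusted *P*=0.00132) and *Ctss* (0.95 ± 0.12, adjusted *P*=0.00128, edgeR). *Cd68* lost its call without KO P14 replicate 2 or 3 or KO P21 replicate 1 or 4. From P21 to P35 *Trem2* rose (1.73 ± 0.30, adjusted *P*=0.0057, edgeR), where 2.07% of 15734 genes were called higher, and *Mrc1* fell (-0.75 ± 0.12, adjusted *P*=0.00436, edgeR), where 1.94% were called lower. At an adjusted *P* under 0.05 without the fold threshold, chosen after seeing the data, 6 of the 10 passed, 5 of them higher at P35. These 2 calls depended on single libraries. Leaving out 1 library gave 0 calls without KO P21 replicate 1, 2 or 4 or KO P35 replicate 3 or 4, and 1 without KO P21 replicate 3 (*Mrc1*) or KO P35 replicate 1 (*Ctss*).

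An interaction term in 1 fit of all 32 libraries asked whether KO minus WT differed from age to age. Between P14 and P35 it differed in 6 of 10 genes, where 3.77% of 18583 genes had a higher effect. These were *Cd68* (difference of log2 fold changes 1.75), *Ctss* (1.60), *Lyz2* (1.00), *Adgre1* (0.90), *C1qb* (0.87) and *C1qa* (0.82), with adjusted *P*-values of 1.79e-05 (*Ctss*) to 0.00729 (*Adgre1*, edgeR). With 1 library left out the count was 4 to 6, and *Cd68*, *Ctss*, *C1qa* and *C1qb* kept the call in each of the 16 fits. *Adgre1* kept it only without WT P14 replicate 4, KO P14 replicate 1 or 3, WT P35 replicate 3 or KO P35 replicate 1, and *Lyz2* lost it without WT P14 replicate 4, KO P14 replicate 2, WT P35 replicate 4 or KO P35 replicate 2 or 3. *Trem2* differed by 1.22 ± 0.47 and *Csf1r* by 0.67 ± 0.22, which did not pass (adjusted *P*=0.0719 and 0.0303, edgeR), and *Mrc1* and *Cd163* by -0.24 and -0.08. Between P14 and P21 only *Ctss* passed among the 10 (1.11 ± 0.22, adjusted *P*=0.00874, edgeR), where 0.377% of genes had a higher effect, and its call was lost in 15 of the 16 fits that left out 1 library. Between P21 and P35, 0 of 10 passed in edgeR, 3 having an unadjusted *P* under 0.05, as did 17.4% of all genes, where 0.151% of genes had a higher and 0.312% a lower effect. Each pair of these 3 comparisons shares the libraries of 1 age.

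Levels can be set beside each other per kilobase of transcript, taken as the principal coding transcript in GENCODE M21. In WT muscle at P35 *Lyz2* was highest at 29.7 ± 1.88 CPM per kb, apart from *C1qb* (9.56 ± 1.04) and *C1qa* (9.40 ± 1.22), which overlapped. *Mrc1* (5.50 ± 0.553) and *Ctss* (3.54 ± 0.186) followed, each apart from its neighbours. *Csf1r* (2.65 ± 0.342), *Cd163* (2.22 ± 0.764) and *Cd68* (2.02 ± 0.346) overlapped in this order, and *Adgre1* (1.06 ± 0.138) and *Trem2* (0.385 ± 0.093) were lowest. In KO muscle of the same age *Cd68* stood at 6.46 ± 1.52 CPM per kb, now before *Mrc1* at 4.27 ± 0.441 and *Csf1r* at 3.90 ± 0.865, although its range overlapped those of both.

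Within groups the genes varied together only in part. Over the 32 deviations of log2 CPM from the group means, the 45 pairs among the 10 genes had Pearson correlations from -0.48 (*Cd163* with *Trem2*) to 0.88 (*Lyz2* with *Ctss*), with a median of 0.38. *C1qa* and *C1qb* correlated at 0.84. The points share libraries and scaling, so these values are a description. The genes outside the list with the highest mean correlation with the 10 over the 32 levels were *C1qc* (0.69), *Pld4* (0.69), *Itgam* (0.68), *Arhgap30* (0.68) and *Cyth4* (0.68). Over the deviations they were *C1qc* (0.52), *Ly86* (0.51), *Dock2* (0.50), *Cd53* (0.50) and *Clec4a3* (0.50). The third C1q chain led in both by a narrow margin, and the 10 genes of the mean include *C1qa* and *C1qb*.

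Further genes of the same pathways were read from 8 lists, to be set beside all genes, of which 3.18% were called higher and 227 of 15179 lower at P21, and 8.49% higher and 7.52% lower at P35. Of 24 other macrophage and monocyte markers, 2 of 22 tested rose at P21 and 13 of 23 at P35, with 0 lower at either age and a median log2 fold change of 0.58 and 1.01. *Lgmn*, the lysosomal protease legumain, rose from 46.5 ± 4.61 to 87.6 ± 10.3 CPM (SD, n=4) at P21 and from 45.4 ± 2.83 to 122 ± 28.5 CPM at P35. *Cd14*, the co-receptor for lipopolysaccharide, rose by 0.80 at P21, and *Ccr2*, the chemokine receptor of monocytes, had 1.06 (adjusted *P*=0.0102, edgeR). *Laptm5* (1.10) and *Cd84* (1.23), both genes of blood cell membranes, rose at P35.

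The 7 MHC class II genes, which present antigen, had log2 fold changes above 0 at both ages. At P21 0 of 7 passed in edgeR, with a median of 1.03 and adjusted *P*-values of 0.0108 for *Cd74*, 0.0139 for *H2-Aa* and 0.0148 for *H2-DMa*, and at P35 6 of 7 rose. *H2-Ab1* went from 12.2 ± 1.52 to 38.1 ± 9.67 CPM at P35, and *H2-Eb1* and *H2-Aa* rose by 1.54 and 1.45.

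Of 29 complement genes 25 were tested, of which 3 rose at P21 and 9 rose and 2 fell at P35, where 7.52% of all genes were called lower. *C1qc*, the third chain of C1q, rose from 7.90 ± 0.626 to 11.97 ± 1.07 CPM at P21 (0.61 ± 0.09, adjusted *P*=0.00253, edgeR). *Cd55*, an inhibitor of complement on cell surfaces, rose at both ages (0.77 and 0.89), as did *Itgax*, a chain of complement receptor 4 (1.33 at P21). *Itgam*, a chain of complement receptor 3, rose at P35 (1.20 ± 0.18, adjusted *P*=0.000926, edgeR), and *Clu*, which encodes the complement inhibitor clusterin, fell (-0.92 ± 0.15, adjusted *P*=0.00114, edgeR).

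Among 14 tested genes of the TREM2 axis and of lipid-laden macrophages, 2 rose and 1 fell at P21 and 5 rose at P35. *Itgax* belongs to this list and to the complement list, so its rise is counted in both. *Lgals3*, the lectin galectin-3, rose from 1.85 ± 0.454 to 8.28 ± 3.98 CPM at P21 and from 2.44 ± 0.800 to 22.1 ± 10.9 CPM at P35. *Tyrobp*, the adaptor through which TREM2 signals, and *Apoe*, a lipid carrier and TREM2 ligand, rose at P35 (1.04 and 0.86). *Lpl*, the lipoprotein lipase that muscle fibres and fat cells also make, fell at P21 (-0.59 ± 0.11, adjusted *P*=0.00662, edgeR), where 227 of the 15179 genes tested were called lower.

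Of the 11 CSF1R ligands and lineage factors 1 rose at P21, and 3 rose and 1 fell at P35, with a median of 0.17 at P21 and -0.15 at P35, the latter smaller in size than the 0.44 by which library totals moved the median of all genes. *Runx1*, a transcription factor of blood cells that denervated muscle fibres also express, rose from 3.05 ± 0.839 to 21.4 ± 5.67 CPM at P21 and to 27.3 ± 6.93 CPM at P35. *Cebpa*, a factor of myeloid cells and fat cells, had 0.70 at P21 (adjusted *P*=0.0429, edgeR) and rose at P35 (1.29), and *Cebpb* had 0.53 at P21 (adjusted *P*=0.0487, edgeR). *Irf5*, an interferon regulatory factor, fell at P35 from 40.9 ± 15.3 to 13.4 ± 2.29 CPM. Which cells the *Irf5* RNA came from was not tested.

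Scavenging and tissue-resident genes, the group to which *Mrc1* and *Cd163* are closest, gave 0 of 15 at P21 in edgeR, with a median of 0.05, and 1 higher and 1 lower of 16 at P35, with a median of 0.01. *Slc40a1*, the iron exporter ferroportin, had -0.62 at P21 (adjusted *P*=0.0444, edgeR) and fell at P35 from 45.6 ± 7.80 to 13.1 ± 3.27 CPM (-1.77 ± 0.19, adjusted *P*=0.000202, edgeR). *Gas6*, a bridging ligand for dying cells, had 0.53 at P21, under the fold threshold, and rose at P35 (0.73). *Stab1*, a scavenger receptor, had -0.37 at P21 (adjusted *P*=0.0661, edgeR), and *Pf4* 0.50 at P35 (adjusted *P*=0.0188, edgeR).

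Of 11 inducible macrophage genes 5 were tested, of which 1 rose at P21, and 3 rose and 1 (*Cxcl9*) fell at P35. *Cxcl10*, an interferon-induced chemokine, rose from 0.145 ± 0.0587 to 1.97 ± 0.257 CPM at P21 and to 1.89 ± 0.420 CPM at P35. *Retnla* (1.58) and *Ptgs2* (2.16) rose at P35, while *Retnla* (1.00) and *Nos2* (-0.64) did not pass at P21 (adjusted *P*=0.043 and 0.0477, edgeR). Of 20 genes of the lysosomal list 3 rose at P21 and 5 at P35, with a median of 0.16 and 0.19. The list also holds the cathepsin inhibitors *Cst3* and *Cstb*. *Cst3*, a secreted cathepsin inhibitor, and *Hexa*, a lysosomal hydrolase, rose at P21 (0.81 and 0.80), *Hexa*, *Cstb* and *Ctsz* rose at P35 (0.95, 1.44 and 0.79), and *Ctsl* had 0.47 at P21, under the fold threshold.

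**Figure D5:**
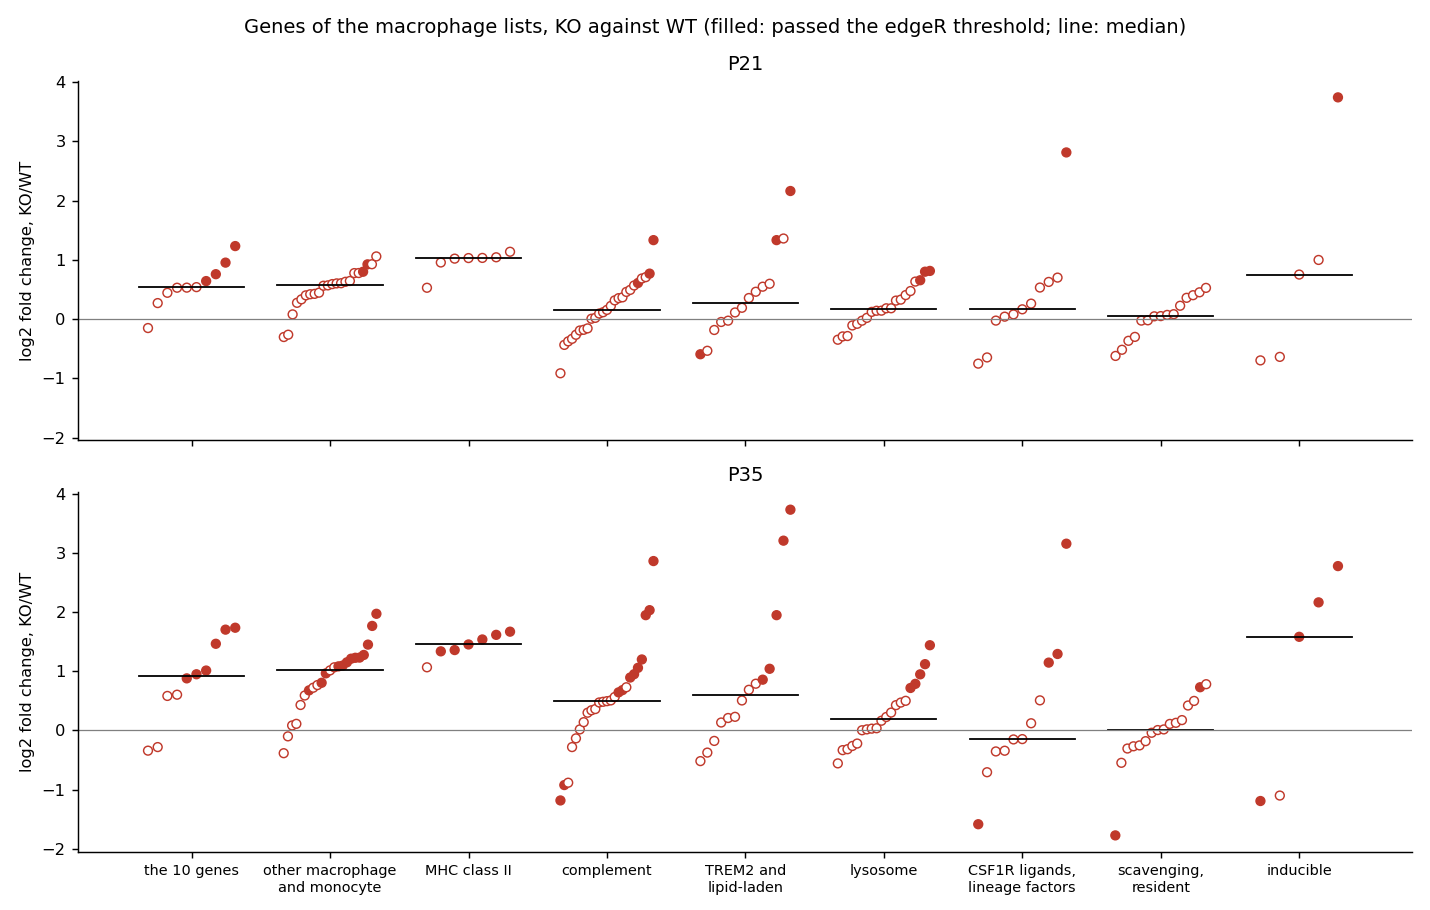
Log2 fold change of KO against WT at P21 (upper panel) and P35 (lower panel) for the tested genes of each list, with 1 point a gene, filled where it passed the edgeR threshold, and the median as a line. At P35 the other macrophage and MHC class II lists have medians of 1.01 and 1.45, and the scavenging and resident list 0.01.

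Markers of other cell types were read beside these results. Of the neutrophil, T cell, B cell, NK cell, dendritic and mast cell lists, 0 genes passed in edgeR at P21 or P35, although few of them reached the level tested (at P35 3 of 12, 1 of 8, 2 of 6, 0 of 5, 5 of 5 and 5 of 7). At P35 the summed T cell markers were at 0.341 to 1.03 CPM in WT muscle and 0.551 to 1.64 CPM in KO muscle, with *Cd3e* at 0.138 CPM or less, and B cell markers at 0.462 to 1.31 and 0.534 to 1.53 CPM, with *Cd79a* at 0.429 CPM or less. *S100a8* was at 0.546 CPM or less and *Ncr1* at 0.0919 CPM or less. Dendritic markers were at 9.90 to 10.9 and 9.67 to 12.01 CPM, with *Flt3* at 0.560 CPM or less, and mast cell markers at 11.3 to 28.6 and 9.93 to 13.9 CPM, with *Cpa3* at 0.835 to 4.99 CPM.

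Other lists moved with genotype. At P21 the sums of endothelial genes (554 to 850 CPM in WT and 437 to 532 CPM in KO muscle), mast cell genes (19.13 to 25.2 and 12.7 to 19.03 CPM) and keratinocyte genes (3.74 to 4.62 and 9.17 to 11.4 CPM) did not overlap between genotypes, although of these lists *Sfn* alone passed in edgeR, and the lymphatic gene *Flt4* fell. Adipocyte genes rose at P35 (3 of 5, summed 2.48 to 11.5 CPM in WT muscle and 15.2 to 64.6 CPM in KO, *Adipoq* 4.70 CPM or more in KO). Muscle fibre genes fell (2 of 7, summed 120618 to 193898 and 76205 to 110674 CPM, where 7.52% of all genes were called lower), as did endothelial genes (2 of 6, 318 to 599 and 285 to 357 CPM, *Pecam1* 101 to 180 and 101 to 117 CPM). Of keratinocyte genes *Sfn* rose at P21 and P35 (summed 5.51 to 7.54 and 14.9 to 21.5 CPM at P35), while *Krt5* stayed at 0.398 CPM or less. Lymphatic genes gave 1 higher and 1 lower of 4 at P35, with *Prox1* at 3.37 to 6.74 CPM. The fibroblast (*Pdgfra*, 0 of 7) and erythroid (*Hba-a1*, 0 of 5) lists gave no call at P35 in edgeR, with medians of 0.26 and -0.56. The part of these cell types in the change of the macrophage genes was not tested.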

How the data were processed

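Poly(A) RNA of TA muscle was sequenced from directional libraries, 4 per genotype and age. The authors deposited RSEM expected counts per gene, and the submitters' processing notes name STAR 2.6.1, RSEM 1.2.22 and GRCm38, whereas the published methods name HTSeq as the counter. The annotation release and the strand setting are not given in the sources used here. Of the deposited expected counts 4.26% were not whole, but all 320 values of the 10 genes were. No source states that each library is a separate mouse, so *P*-values measure the spread between these libraries, which may be technical in part. No replicate pair agreed within sampling noise (chi-square per degree of freedom 10.5 or more).

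Groups came from the labels. Symbols were available for 54809 of 54838 IDs (GENCODE M21). Counts were rounded and fitted with edgeR 4.0.16 (R 4.3.3) by the quasi-likelihood test with TMM scaling and the filter of filterByExpr, on the 8 libraries of each comparison and on all 32 for interactions. A call needed a Benjamini-Hochberg adjusted *P* under 0.01 and, except for interactions, a fold change over 1.5. Ratios used a pseudocount of 0.5 and exact permutation tests. The edgeR test alone was run on simulated counts, for KO versus WT at P35, WT P35 versus P21 and the interaction of P35 versus P21. Neither fold changes as small as the threshold nor the permutation tests were simulated. DESeq2 1.42.0, other scalings, filters and thresholds, a replicate block and leaving out each library were alternatives. Replicate numbers are in the labels. Same-numbered WT and KO libraries deviated together in all 4 pairs only at P14 (correlation 0.19 to 0.59), where the paired fit is given beside the unpaired one. The 10 genes and the gene lists were chosen with earlier results of these data known. All 10 genes are named, with the 3 genes of smallest *P* of each list at P21 and at P35, the first gene of each marker list (1 list is not reported here), *Mtm1* and the 5 most correlated genes, and further names were chosen after their values were seen. Figures used python 3.11.15 and matplotlib 3.10.9.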

Additional observations from a re-analysis of the deposited data

Results flagged for a closer look

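In 5 of the 80 sets of 4 libraries, 1 library stood apart from the other 3 by Dixon's test, which chance alone does in about 1 of 20 sets. *Cd68* was at 2.07 CPM in WT P14 replicate 4 against 2.76 to 2.81 CPM in the others, *Adgre1* at 2.93 CPM in the same library against 4.30 to 4.50 CPM, and *C1qa* at 8.88 CPM there against 9.93 to 9.97 CPM. *Lyz2* was at 21.4 CPM in KO P14 replicate 2 against 28.2 to 29.5 CPM. *Ctss* was at 9.23 CPM in KO P21 replicate 4 against 7.59 to 7.76 CPM.

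The KO effect differed between ages in the interaction test (edgeR) for *Ctss* between P14 and P21, by 1.11 on the log2 scale. Between P14 and P35 it differed for *Cd68* (1.75), *Ctss* (1.60), *Lyz2* (1.00), *Adgre1* (0.90), *C1qb* (0.87) and *C1qa* (0.82).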

How the results depend on the processing

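At P21 the count of 4 higher genes became 7 with library totals, 1 (*Ctss*) with the replicate block, 7 at an adjusted *P* under 0.05 without a fold threshold, and 0 to 3 with 1 library left out. From P21 to P35 in KO muscle the count of 2 became 4 with library totals, 0 with the replicate block, 6 at an adjusted *P* under 0.05 without a fold threshold and 0 to 2 with 1 library left out. The interaction between P14 and P21 (1 gene) became 0 with RLE size factors, without the filter and with the 16 libraries of these ages alone, 2 at an adjusted *P* under 0.05, and 0 to 1 with 1 library left out. From P21 to P35 in WT muscle, leaving out 1 library gave 0 to 1, and an adjusted *P* under 0.05 gave 1 in place of 0. For the steps between ages this threshold was chosen after seeing the data. The counts of the other comparisons stayed within 1.5 times, with 6 to 8 at P35, 7 in each genotype from P1 to P14, 2 to 3 from P14 to P21 in KO muscle, 4 to 6 for the interaction between P14 and P35, and 0 at P1 and P14, when 1 library was left out. The block changed no other call than *Cd68* from P14 to P21 in KO muscle and those above. Same-numbered WT and KO libraries correlated at -0.32 to 0.00 at P1, -0.01 to 0.19 at P21 and -0.08 to 0.17 at P35. With so few pairs an age, these values cannot tell whether such libraries share more than a number.

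Library totals turned the sign at P14 for *Cd68* (0.014), *Lyz2* (0.082) and *C1qb* (0.073), at P21 for *Mrc1* (0.033) and at P35 for *Mrc1* (0.060) and *Cd163* (0.12), none of which was called. Relative to the median of all genes these values were below 0 again, at -0.073, -0.0057, -0.015, -0.16, -0.38 and -0.32 in this order. With 1 library left out, uncalled values crossed 0 at P1 for *Cd68* (-0.35 to 0.017), *Ctss* (-0.0071 to 0.19) and *Trem2* (-0.17 to 0.29), and at P14 for *Cd68* (-0.23 to 0.029), *Lyz2* (-0.078 to 0.080) and *C1qb* (-0.091 to 0.065). With *Adgre1* as the reference the ratio differences became 0.36 for *C1qa* at P35 (exact permutation *P*=0.0286), 0.055 for *Trem2* at P21 and -0.82 for *Cd163* at P35 (exact permutation *P*=0.0571). With 1 library left out the differences from *Csf1r* at P21 and P35 were 0.03 to 0.19 and 0.29 to 0.50 for *C1qa*, -0.31 to 0.30 and 1.01 to 1.29 for *Trem2*, -0.42 to -0.19 and -0.93 to -0.68 for *Cd163*, and -0.75 to -0.64 and -0.99 to -0.80 for *Mrc1*. The cause of these shifts was not tested. *Trem2* had 6 to 26 counts a library at P21, which limits its precision.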
